A study of Homo sapiens with 8 samples.

Results

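H3K27ac regions that were strong in both MIA PaCa-2 lines and lay at an end of a protein-coding gene were described here. They were chosen by the deposited peak signal itself. Peak intervals of MP2_HDAC1_OE and MP2_NTC were merged where they shared 1 bp or more, and a region was kept when it held peaks of both lines, overlapped the window from 2 kb outside to 1 kb inside an end of a protein-coding gene, and had its highest signal at percentile rank 85 or above in both lists. The rank was taken within each list, over all merged regions with a peak in that list. This left 896 of 18678 merged regions (4.797%), or 13.9% of the 6466 shared regions in a promoter window, and they lay at 1135 of 20056 protein-coding genes (5.66%). The other 5570 shared promoter regions served as the comparison throughout.

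MIA PaCa-2 is an established line from a human pancreatic carcinoma. MP2_HDAC1_OE carries an sgRNA to *HDAC1* with the lentiSAMv2 and lentiMPHv2 CRISPR activation constructs, and MP2_NTC carries the same system with a non-targeting sgRNA, so both lines share the lentiviral components. H3K27ac was measured by ChIP-sequencing in 2 samples per line, beside 2 control samples per line made without an antibody. The authors deposited 1 peak list per line that pools both samples, with 25045 peaks in MP2_HDAC1_OE and 22569 in MP2_NTC. No value per sample was used here, the depth is unknown, and no test between the lines was possible. Intervals in brackets are 95% Wilson intervals for shares and order-statistic intervals for medians, and they cover counting error over regions or genes alone, which are not replicates.

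Acetylation of lysine 27 on histone H3 marks nucleosomes at active promoters and enhancers. It is written by the acetyltransferases p300 and CBP and removed by histone deacetylases, among them HDAC1. At an active promoter the start of transcription itself is usually kept free of nucleosomes, so the acetylated histones flank it. Promoters that are strong in many cell types often serve housekeeping genes and lie in CpG-rich sequence.

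The promoters of the regions with the highest ranks are shown to give their sequence beside their signals. Each line holds the 250 bases before the annotated start (RefSeq, GRCh38.p14), written 5′ to 3′ in the direction of the gene, for the 5 of the 10 top regions whose upstream bases overlap no other annotated transcript. Capitals mark matches on either strand to the SP/KLF box (GGGCGG), the CCAAT box, the ETS site (CCGGAAG), the NRF1 site (GCATGCGC) and the TATA box (TATAAA). The positions are chr7:76358992-76359241 for *YWHAG*, chr7:44490659-44490908 for *NUDCD3*, chr5:177351669-177351918 for *LMAN2*, chr3:185938015-185938264 for *TRA2B* and chr19:5791164-5791413 for *DUS3L*, all on the minus strand.
YWHAG: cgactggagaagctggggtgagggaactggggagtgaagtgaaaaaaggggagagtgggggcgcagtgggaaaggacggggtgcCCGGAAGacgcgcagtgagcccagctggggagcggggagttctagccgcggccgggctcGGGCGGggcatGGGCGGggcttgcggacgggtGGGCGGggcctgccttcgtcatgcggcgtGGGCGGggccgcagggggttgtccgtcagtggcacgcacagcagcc
NUDCD3: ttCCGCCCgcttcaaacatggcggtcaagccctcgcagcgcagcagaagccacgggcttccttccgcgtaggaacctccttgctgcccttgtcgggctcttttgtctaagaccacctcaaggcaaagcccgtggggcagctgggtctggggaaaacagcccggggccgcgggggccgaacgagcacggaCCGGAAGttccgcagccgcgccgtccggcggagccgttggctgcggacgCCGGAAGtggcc
LMAN2: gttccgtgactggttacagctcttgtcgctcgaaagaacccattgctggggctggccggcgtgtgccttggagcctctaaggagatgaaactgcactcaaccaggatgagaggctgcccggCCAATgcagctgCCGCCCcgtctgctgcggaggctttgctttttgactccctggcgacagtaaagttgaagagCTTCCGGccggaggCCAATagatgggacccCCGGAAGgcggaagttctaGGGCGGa
TRA2B: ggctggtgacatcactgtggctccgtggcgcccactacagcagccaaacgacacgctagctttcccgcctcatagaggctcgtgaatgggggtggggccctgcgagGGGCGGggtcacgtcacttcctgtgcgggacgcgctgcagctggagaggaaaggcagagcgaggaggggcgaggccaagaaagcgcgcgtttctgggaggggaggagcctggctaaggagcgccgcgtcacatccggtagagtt
DUS3L: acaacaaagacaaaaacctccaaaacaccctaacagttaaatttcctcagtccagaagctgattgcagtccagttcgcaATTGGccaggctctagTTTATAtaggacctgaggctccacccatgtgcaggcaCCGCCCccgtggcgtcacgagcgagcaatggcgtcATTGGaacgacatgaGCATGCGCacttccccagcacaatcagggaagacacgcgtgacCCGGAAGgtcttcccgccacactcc

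All 5 sequences held at least 1 SP/KLF box, with 4 in *YWHAG*, and 4 of the 5 also held an ETS site. Over promoters of 300 bases, the SP/KLF box was present in 61.5% at strong regions, 72.9% at other shared promoter regions and 58.5% of all protein-coding promoters. For the ETS site these shares were 28.2%, 26.2% and 14.2%. The 5 sequences are examples, and nothing is read from their counts. *YWHAG* encodes the 14-3-3 protein gamma, which binds phosphorylated proteins. Its promoter had the highest GC content of the 5, at 71.6% with 23 CpG. *DUS3L*, an enzyme that makes dihydrouridine in tRNA, had the lowest, at 54.4% with 13 CpG. The *YWHAG*, *NUDCD3* and *LMAN2* sequences lay inside their H3K27ac regions over all 250 bases, while the region reached 86 bases into the *TRA2B* sequence and 127 bases into that of *DUS3L*.

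The region with the highest lower rank of both lines lay at *ZNF689*, which encodes a zinc finger protein (chr16:30609656-30610477). Its signal was 173 in MP2_HDAC1_OE and 204 in MP2_NTC. *YWHAG* followed, with a signal of 185 in MP2_HDAC1_OE, the highest of that list, and 190.4 in MP2_NTC. The region named for *PRH1* (chr12:11171112-11172279) had signals of 162 and 192, in the same order of lines. It also lay at *PRH1-TAS2R14* and at *SMIM10L1*, a gene of the opposite strand, so its signal cannot be given to 1 gene. *NUDCD3*, a cofactor of the Hsp90 chaperone, had signals of 154 in MP2_HDAC1_OE and 177 in MP2_NTC. *LMAN2*, a cargo lectin of the secretory pathway, had 152 and 210.4, and *TRA2B*, a splicing regulator, had 151 and 179.

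The remaining regions of the top 10 were at 4 loci of chromosome 19. *DUS3L* had signals of 148 in MP2_HDAC1_OE and 188 in MP2_NTC. *DMAC2*, a factor of mitochondrial complex I assembly, had 159 and 171. *DOHH*, which completes the hypusine residue of the translation factor eIF5A, had 148 and 179.9. A region that held the starts of both *U2AF1L4*, a splicing factor gene, and *PSENEN*, which encodes a subunit of gamma-secretase, had 158 and 169.6. In each of the 10 regions the strongest summits of the lines were at most 38 bp apart.

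**Figure D1:**
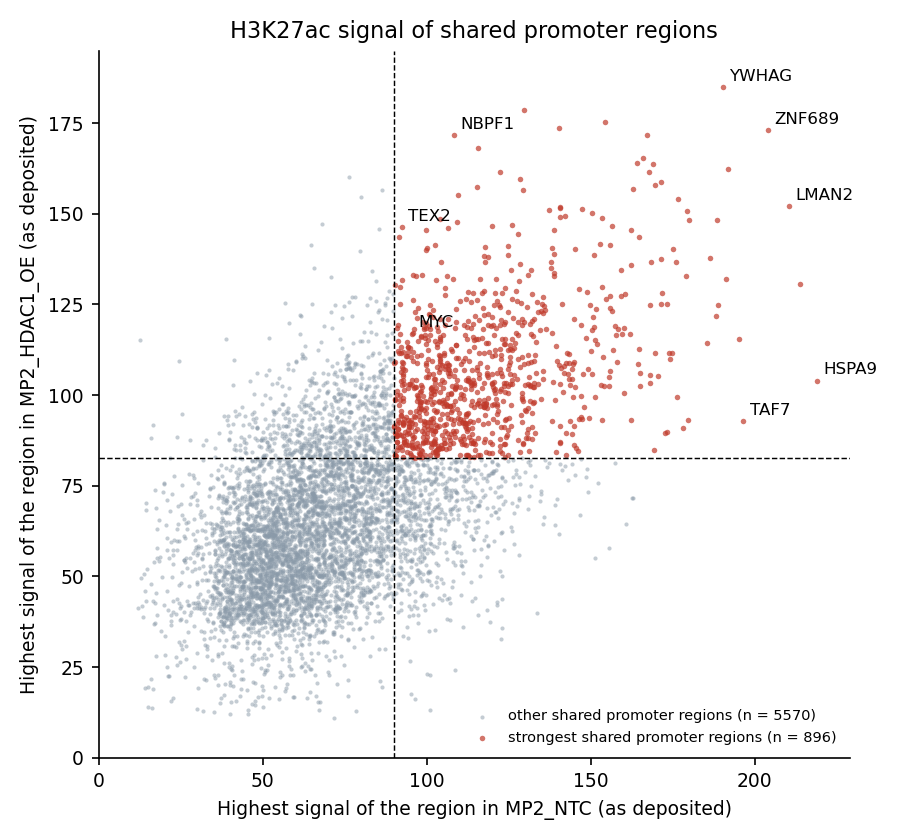
Each point is 1 of the 6466 shared promoter regions, placed by its highest H3K27ac signal in MP2_NTC (x axis) and in MP2_HDAC1_OE (y axis), as deposited and without a common scaling of the lists. The dashed lines are the lowest signals at percentile rank 85 (90.002 in MP2_NTC, 82.8 in MP2_HDAC1_OE), and the 896 regions in red lie above both by the rule.

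Across the 896 regions the signal in MP2_HDAC1_OE had a median of 103, ranging from 82.8 to 185, with the middle 50% between 92.4 and 116. In MP2_NTC the median was 113, and the middle 50% lay between 101 and 129. The other shared promoter regions had medians of 61.9 and 64.2. As the rule used these signals, the gap between the groups is a description. The plot of both signals shows no gap at the threshold. Just inside it were the regions of *ZNF558* (82.8 in MP2_HDAC1_OE, 96.5 in MP2_NTC), *WDR88* (91.1 and 90.02) and *RPL19*, a protein of the large ribosomal subunit (109 and 90.03). Just outside it were *FGGY* (105 and 89.96), *APPBP2* (82.7 and 129) and *PDF*, a mitochondrial peptide deformylase (84.2 and 89.96).

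The regions were made of few peaks. In MP2_HDAC1_OE 202 held 1 peak, 426 held 2 and 229 held 3, and in MP2_NTC the counts were 192, 453 and 216. At least 2 peaks were present in 77.5% [74.6 to 80.1] of the regions in MP2_HDAC1_OE and 78.6% [75.8 to 81.1] in MP2_NTC, against 58.5% and 56.3% of the other shared promoter regions. Despite this the regions were narrower, with a median width of 920.5 bp [888 to 967] against 1062 bp [1051 to 1073]. A further 194 shared regions outside promoter windows passed the same rank threshold in both lists. They held at least 2 peaks in 83.5% [77.6 to 88.1] in MP2_HDAC1_OE and 82.0% [75.9 to 86.7] in MP2_NTC. A high share with at least 2 peaks was therefore not particular to promoter windows. Their median width was 961.5 bp [895 to 1061], an interval that overlapped those of both promoter groups. In strong promoter regions with exactly 2 peaks the summits were a median of 208 bp apart in MP2_HDAC1_OE and 205 bp in MP2_NTC. This was close to the smallest spacing present in the lists for such regions, 199 bp. The medians in the other shared promoter regions were 243 bp and 229 bp.

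The widest region was at *ZMYND8*, a chromatin reader (3187 bp, 6 peaks in MP2_HDAC1_OE and 7 in MP2_NTC), followed by *KMT2E*, a gene of the MLL family (2912 bp, 5 peaks in each). *ANG*, which shares its region with the ribonuclease gene *RNASE4*, spanned 2367 bp. *COQ10B*, a coenzyme Q binding protein, spanned 2345 bp, and *ZCCHC10* spanned 2320 bp. In 3 of these wide regions the strongest summits of the lines differed by more than 200 bp, up to 1054 bp at *ANG*. They were 13 bp apart at *COQ10B* and 22 bp apart at *ZCCHC10*.

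The strongest summit was at nearly the same position in both lines. Its median shift between the lists was 35 bp [34 to 39], against 66 bp [63 to 70] in the other shared promoter regions, and it was 53 bp when regions were chosen by summed signal. It moved by at most 50 bp in 61.7% [58.5 to 64.8] of the regions and in 42.0% [40.7 to 43.3] of the others, and by more than 200 bp in 11.9% and 25.5%. The 194 shared regions outside promoter windows that also ranked at 85 or above in both lists had a median shift of 39 bp [32 to 46], with 61.3% [54.3 to 67.9] within 50 bp. The shift was therefore of similar size at strong regions inside and outside promoter windows.

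A signal ratio of the lines was formed as log2 of MP2_HDAC1_OE over MP2_NTC, minus its median over all 9477 shared regions. The regions had a median of -0.07 [-0.09 to -0.06], with a range from -1.03 to 0.72. The lowest signals that the rule accepted differed between the lists, at 82.8 in MP2_HDAC1_OE and 90.002 in MP2_NTC. The sign of this median therefore depends in part on the rule, and no difference between the lines is read from it. The ratio passed 1.5-fold upward in 6 regions (0.670%) and downward in 34 (3.79%), where 12.2% and 12.4% of all shared regions passed upward and downward. As the rule asked for a high signal in both lines, a small number was fixed in part by the choice, and nothing is read from it. When regions were chosen by their summed signal instead, 15.5% of the regions chosen passed in either direction, against 4.46% here.

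The largest ratios were at *TEX2* (146 in MP2_HDAC1_OE, 92.3 in MP2_NTC, log2 ratio 0.72), *NBPF1* (172 and 108, 0.72), *ZNF335* (144 and 91.5, 0.71) and *IL6ST*, the gp130 receptor subunit of interleukin 6 signaling (146 and 99.7, 0.60). The *TEX2* region lay beside the end of the gene that is far from its start, and *NBPF1* belongs to a family of near-identical copies, between which reads could be split. *ZNF747* (0.59) and *SEC23B*, a COPII coat component (0.60), completed the 6. The lowest ratios were at *TAF7*, a subunit of the general factor TFIID (92.7 in MP2_HDAC1_OE, 197 in MP2_NTC, -1.03), *HSPA9*, the mitochondrial Hsp70 (104 and 219, -1.02), *RAD23B*, a factor of nucleotide excision repair (84.8 and 169, -0.94), and *HSP90AB1*, a cytosolic Hsp90 (90.9 and 178, -0.91). In these 4 regions the strongest summits of the lines were at most 18 bp apart. The median ratio of the 98 regions of chromosome 5 was -0.21, against -0.09 in its other shared promoter regions. Over all chromosomes these medians were -0.07 and 0.015. Both medians of chromosome 5 were the lowest of any chromosome. On most chromosomes the strong regions had a lower median than the other shared promoter regions, but not on chromosomes 2, 7 and 15. That difference depends in part on the rule, and the low medians of chromosome 5 were not tested.

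Where a start was annotated, the strongest summit usually lay to its side. The promoter table holds no start on chromosome 8, so its 15 regions add no start, divergent pair or promoter sequence. These and other regions without an annotated start still count in the totals for the shares of divergent pairs and lncRNA starts. For 775 regions the nearest gene had a start in the RefSeq promoter table, and the mean of both lines' summits was a median of 244 bp [224 to 258.5] from it, against 298.5 bp [290.0 to 308] in the other shared promoter regions. Within 500 bp were 82.5% [79.6 to 84.97] and 71.8% [70.5 to 73.1]. The mean summit was within 100 bp of the start in 9.55% [7.67 to 11.8] of the regions and in 8.39% [7.62 to 9.22] of the others. As a mean of both lines, it can fall where neither line has its summit. It lay downstream of the start in 59.4% [55.9 to 62.8] of the regions and in 65.1% [63.7 to 66.5] of the others. From 50 to 200 bp upstream lay 12.8% [10.6 to 15.3] of the summits, against 6.62% [5.94 to 7.37] of the others, a range that was picked after the distribution was seen. From 100 to 250 bp downstream the shares were 29.8% [26.7 to 33.1] and 26.5% [25.3 to 27.8].

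**Figure D2:**
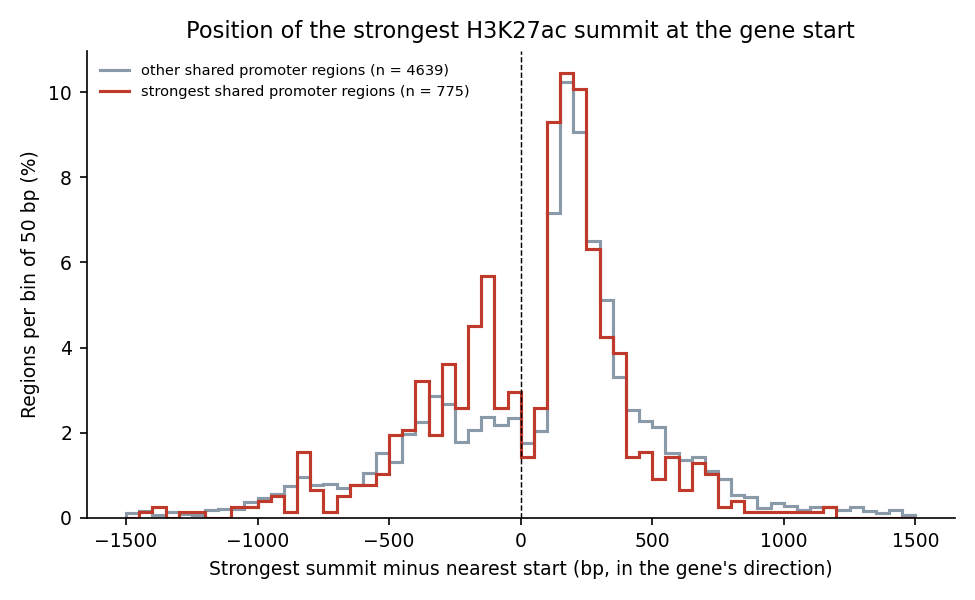
Histogram of the distance from the nearest annotated start to the strongest H3K27ac summit (mean of both lines, x axis in bp, positive in the direction of the gene), as percent of regions per bin of 50 bp, for 775 strongest regions (red) and 4639 other shared promoter regions (gray). Both have their highest bins 100 to 250 bp downstream and few summits at the start, and the strongest regions have a further rise 50 to 200 bp upstream.

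Of the regions, 571 held the annotated start of a protein-coding gene, 71.2% [68.0 to 74.2] of the 802 that had such a start among their genes, against 64.0% of the others. In those with 2 or more peaks, the start lay between the outermost summits in 50.6% [45.9 to 55.2] in MP2_HDAC1_OE and 45.9% [41.4 to 50.5] in MP2_NTC. The values in the other shared promoter regions, 47.7% and 45.2%, lay inside these intervals. Of the strong regions 26.6% [23.8 to 29.6] lay at 2 or more genes, against 26.8% [25.6 to 27.9] of the others. With windows around annotated starts alone these shares were 16.6% [14.2 to 19.4] of 811 regions and 15.5% [14.5 to 16.5] of 4753 others.

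Divergent promoters, where neighboring genes are read outward from a common stretch, were found inside 40 regions (4.46% [3.30 to 6.02]) and 236 others (4.24%). The distance between the starts was a median of 230.0 bp [118 to 284] in the 40 regions and 142 bp [120.0 to 163] in the others. The 5 shortest were *PTRHD1/CENPO* (34 bp), *MRPL27/EME1* (45 bp), *METTL4/NDC80* (52 bp), *TOPBP1/TF* (57 bp) and *BAZ2B/MARCHF7* (64 bp). The bases between the starts of the first 3, chosen after the values were seen, are given in the direction of the second gene, with capitals for an ETS site (CCGGAAG) or a cyclic AMP response element (TGACGTCA). They lie at chr2:24793392-24793424, chr17:50373185-50373228 and chr18:2571506-2571556 on the plus strand.
PTRHD1/CENPO: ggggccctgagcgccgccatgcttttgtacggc
MRPL27/EME1: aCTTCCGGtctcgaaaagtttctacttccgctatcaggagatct
METTL4/NDC80: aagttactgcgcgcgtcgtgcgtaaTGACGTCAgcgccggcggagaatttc

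*CENPO* encodes a kinetochore protein, *EME1* a subunit of a DNA structure-specific endonuclease and *NDC80* a protein of the outer kinetochore that binds microtubules. The *PTRHD1/CENPO* region had signals of 114 in MP2_HDAC1_OE and 185 in MP2_NTC, *MRPL27/EME1* had 105 and 156, and *METTL4/NDC80* had 149 and 104. These signals cannot be divided between the genes of a pair.

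Promoter sequence was not used by the rule. It was compared over the 300 bases from 250 before to 50 after the start, for 639 genes with their start inside a strong region, 3387 with their start in another shared promoter region and 7754 with no region of either line in a promoter window. GC content was a median of 63.0% [62.3 to 63.7] at the strong regions, below the 65.3% [65.0 to 65.7] at the others and above the 58.7% of genes without a region. Over all 15842 protein-coding promoters the median GC content was 62.7%, which lay inside the interval of the strong regions. The ratio of observed to expected CpG was 0.858 [0.843 to 0.874], against 0.869 [0.862 to 0.877] at the others, 0.491 without a region and 0.763 over all 15842 protein-coding promoters. The CpG intervals of the strong and the other shared promoter regions overlapped, and both lay above the value of all promoters.

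The SP/KLF box GGGCGG was present in 61.5% [57.7 to 65.2] of promoters at the strong regions, against 72.9% [71.4 to 74.4] at the other shared regions, 45.0% without a region and 58.5% of all protein-coding promoters. The motif of YY1, AAGATGGC, was present in 11.7% [9.47 to 14.5], against 7.44% [6.60 to 8.37] at the others, 1.42% without a region and 3.91% of all. The TATA box TATAAA, the classical core element of inducible promoters, was present in 7.04% [5.30 to 9.29], against 4.52% [3.87 to 5.27] at the others, 14.3% without a region and 9.63% of all. ETS sites (CCGGAAG) were found in 28.2% [24.8 to 31.8] and 26.2% [24.8 to 27.8], against 14.2% of all. The NRF1 motif GCATGCGC was found in 8.76% [6.81 to 11.2] and 7.14% [6.33 to 8.06], against 4.26% of all. The ZBTB33-type palindrome CTCGCGAG was found in 3.60% [2.41 to 5.34] and 2.78% [2.27 to 3.38], against 1.53% of all.

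Both strands were searched for each motif, and none of the motifs contains another. GC content was also lower at the strong regions than at the others (63.0% against 65.3%), and its part in the share of GGGCGG was not tested. The CCAAT box was present in 32.9% of promoters at strong regions and 36.4% of all protein-coding promoters. The E-box CACGTG was present in 11.4% and 8.88%, the response element TGACGTCA in 4.23% and 2.59%, the AP-1 site TGANTCA in 4.38% and 5.75%, and the TEAD site GGAATG in 9.86% and 11.7%. For these 5 motifs the other shared promoter regions had shares of 36.1%, 11.7%, 4.02%, 3.75% and 10.2%, which lay inside the intervals of the strong regions. A match gives the letters alone and does not show that a factor was bound.

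**Figure D3:**
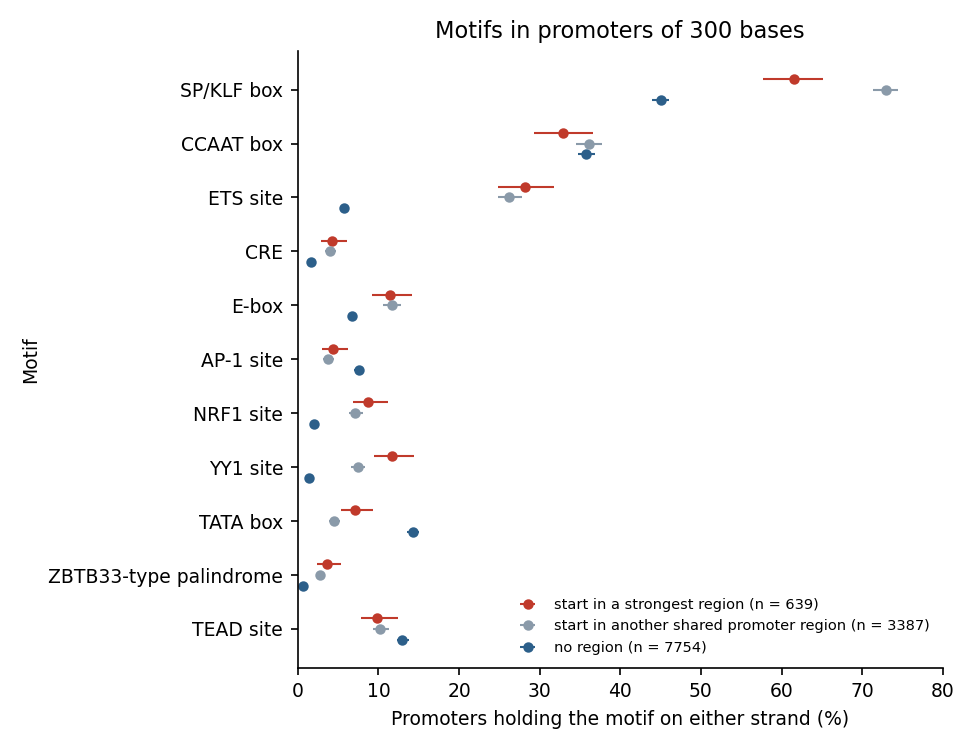
Share of promoters of 300 bases that hold each motif on either strand (x axis, percent), for 639 genes with their start in a strongest region (red), 3387 in another shared promoter region (gray) and 7754 with no region (blue), with 95% Wilson intervals as bars. The SP/KLF box is at 61.5% in red against 72.9% in gray, and the YY1 site at 11.7% against 7.44%.

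Gene families were read as counts, beside the 15.7% [14.9 to 16.6] of all genes at shared promoter regions that lay at a strong one. Signals printed beside a gene are those of its region, which can lie at other genes too and then cannot be given to 1 gene. Such regions include those of *MRPL51*, *MRPL54*, *MRPS5*, *EIF2A*, *NDUFB3* and *AARS1*. The *MRPS5* region is also that of *ZNF514*, so it counts in both families. Aminoacyl-tRNA synthetases, which load tRNA with amino acids, had 5 of 14 genes at strong regions (35.7% [16.3 to 61.2]), among them *AARS1* (114 in MP2_HDAC1_OE, 124 in MP2_NTC) and *GARS1* (91.1 and 94.7). Splicing factors had 16 of 49 (32.7% [21.2 to 46.6]), among them *SRSF4* (104 and 138), *SRSF2* (103 and 124) and *SRSF7* (121 and 113). Chaperones had 15 of 48 (31.2% [19.9 to 45.3]), among them *DNAJB4* (118 and 136), *CCT3*, a subunit of the TRiC ring (120.2 and 129.6), and *HSPA9*. The neighboring genes *HSPD1* and *HSPE1*, which encode the mitochondrial Hsp60 and Hsp10, shared 1 region (92.7 and 91.5).

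Replication-dependent histone genes had 13 of 45 at strong regions (28.9% [17.7 to 43.4]). Several of them share regions, such as *H3C1* and *H4C1* (159 and 128), and near-identical copies make the source of their reads uncertain. The interval counts each of the 13 genes separately, also where they share a region. Mitochondrial ribosomal proteins had 14 of 61 (22.95% [14.2 to 34.9]), led by *MRPL51* (119 and 129), *MRPL54* (129 and 127) and *MRPS5* (126 and 126). Cytosolic ribosomal proteins had 14 of 67 (20.9% [12.9 to 32.1]), among them *RPS23* (118 and 158) and *RPL36AL* (114 and 119). Proteasome subunits had 7 of 36 (19.4% [9.75 to 35.03]), led by *PSMD5* (105 and 131), a chaperone of proteasome assembly. Translation factors had 8 of 42 (19.05% [9.98 to 33.3]), led by *EIF2A* (119.6 and 124). Oxidative phosphorylation subunits had 11 of 63 (17.5% [10.0 to 28.6]), led by *NDUFB3* of complex I (125 and 189).

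Zinc finger genes named ZNF had 51 of 263 at strong regions (19.4% [15.1 to 24.6]), with *ZNF689* first, then *ZNF219* (144 and 165) and *ZNF672* (138 and 186). Cyclins and their kinases had 6 of 26 (23.1% [11.0 to 42.1]), with *CDK16* (117 and 162), *CCNI* (116 and 126) and *CCNG1* (104 and 127) first. AP-1 family genes had 2 of 9, *JUND* (112 and 113) and *ATF2* (97.6 and 106). Ubiquitin and its E2 enzymes had 4 of 24 (16.7%), with *UBE2S* (135 and 132) first. Of the HDAC1 corepressor list 3 of 18 genes (16.7% [5.84 to 39.2]) were at strong regions, *RCOR3* (114 and 127), *SUDS3* (87.1 and 95.5) and *SIN3A*, the scaffold of a deacetylase complex (84.4 and 128). RAB GTPases, which direct vesicle traffic, had 3 of 31 (9.68% [3.35 to 24.9]), *RAB13* (102 and 156), *RAB7A* (102 and 112) and *RAB24* (103 and 95.03), and the *RAB13* region is also that of *RPS27*. Of 392 olfactory receptor genes, 1 had a region, *OR2V2* on chromosome 5 (104 and 105).

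**Figure D4:**
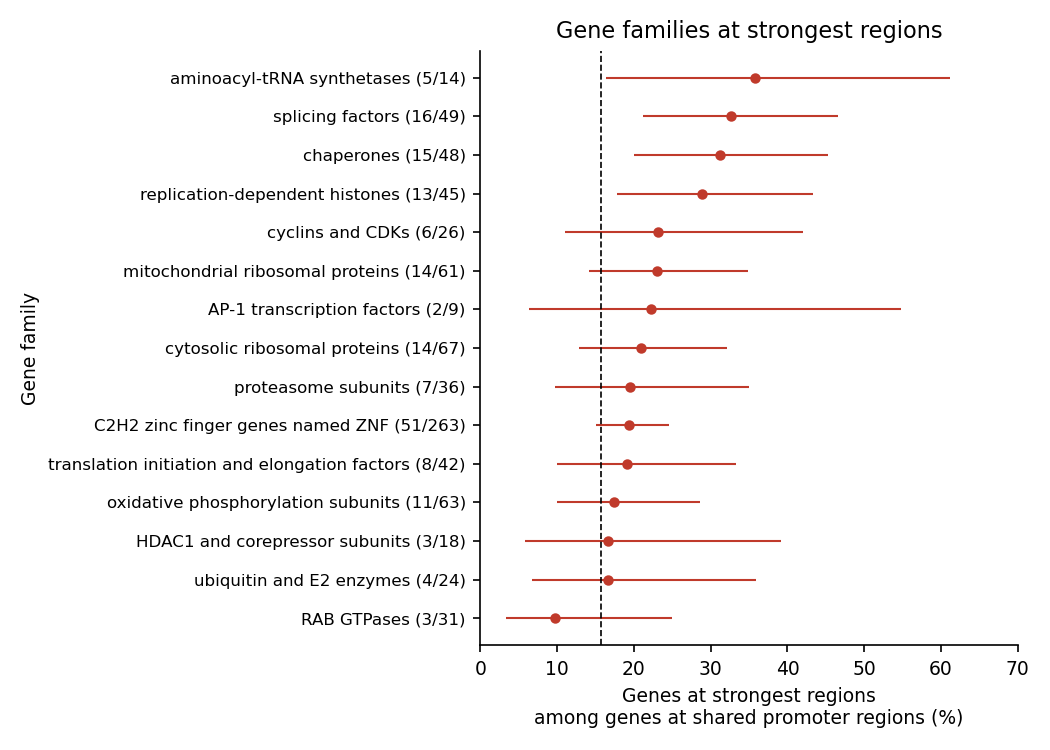
Share of the genes of each family at shared promoter regions that lay at a strongest region (x axis, percent), with 95% Wilson intervals as bars and the counts beside the names. The dashed line is the 15.7% of all genes, and the intervals of splicing factors, chaperones and replication-dependent histones lie above it, as does that of the 14 aminoacyl-tRNA synthetases. Genes that share a region, as several histone genes do, are counted separately, and the intervals make no allowance for this.

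Of the genes of the study described here, only *MYC*, an oncogenic transcription factor, lay at a strong region (117 in MP2_HDAC1_OE, 95.7 in MP2_NTC). *RAC1*, a small GTPase, fell just short, with signals of 79.7 and 89.6. The shared region of *HDAC1*, the activated gene, ranked at 90.5 in MP2_HDAC1_OE and at 26.4 in MP2_NTC, so it was not strong in both lines. A further 2 regions of MP2_NTC alone lay in the windows of *HDAC1*, and none of MP2_HDAC1_OE alone. Shared regions with lower ranks lay at *RAP2B*, *ARHGAP5*, *CD44*, the receptor of hyaluronan, and *ZEB1*, a repressor of epithelial genes. *RALB* had a region in MP2_HDAC1_OE only, and *RAB27B* had none in its windows. No marker gene fixed for a cell type was at a strong region. Of all protein-coding genes 5.66% lay at a strong region, and of those at shared promoter regions 15.7%. With so few study and marker genes, nothing is read from their counts. Of 6 epithelial markers, *KRT8* and *KRT18* lay at 1 common shared region (52.5 and 68.9), *KRT19* had 1 region of each line and none shared, and *EPCAM*, *CDH1* and *KRT7* had none. Of 4 mesenchymal markers, *VIM* and *ZEB1* lay at shared regions, and *CDH2* and *FN1* had none. None of the 4 leukocyte, 3 hepatocyte and 3 acinar markers had a region, and 1 of 3 endothelial markers, *CDH5*, had a shared one.

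The strong regions were spread unevenly over the chromosomes. On chromosome 5 they were 98 of 364 shared promoter regions (26.9% [22.6 to 31.7]), and on chromosome 1 they were 145 of 761 (19.1% [16.4 to 22.0]), against 13.9% overall. At the low end were chromosome 11 with 13 of 288 (4.51% [2.66 to 7.57]), chromosome 4 with 5 of 131 (3.82% [1.64 to 8.62]) and chromosome 15 with 6 of 119 (5.04% [2.33 to 10.6]). The median signal of all shared promoter regions of chromosome 5 was 74.96 in MP2_HDAC1_OE and 83.8 in MP2_NTC. Outside promoter windows 24 of 231 shared regions of chromosome 5 (10.4%) ranked at 85 or above in both lists, against 6.44% of 3011 on all chromosomes. Chromosome 16 had 10 of 97 (10.3%) and chromosome 1 had 33 of 351 (9.40%), so this share was not particular to chromosome 5.

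Within chromosome 5 the share was not even. Windows of 10 Mb with at least 20 shared promoter regions numbered 115, and their median share was 13.6%. The highest was at 150 to 160 Mb of chromosome 5, where 11 of 22 regions (50%) were strong, followed by 130 to 140 Mb with 18 of 48 (37.5%) and 60 to 70 Mb with 8 of 22 (36.4%). Between these, the window at 140 to 150 Mb had 4 of 31 (12.9%). When ranks were taken within each chromosome, an alternative chosen after the data were seen, chromosome 5 held 63 strong regions of 364 (17.3%) and chromosome 11 held 27 of 288 (9.38%). Such ranks give every chromosome the same share of high ranks in a list. The shares therefore move together by construction, and nothing is read from this.

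**Figure D5:**
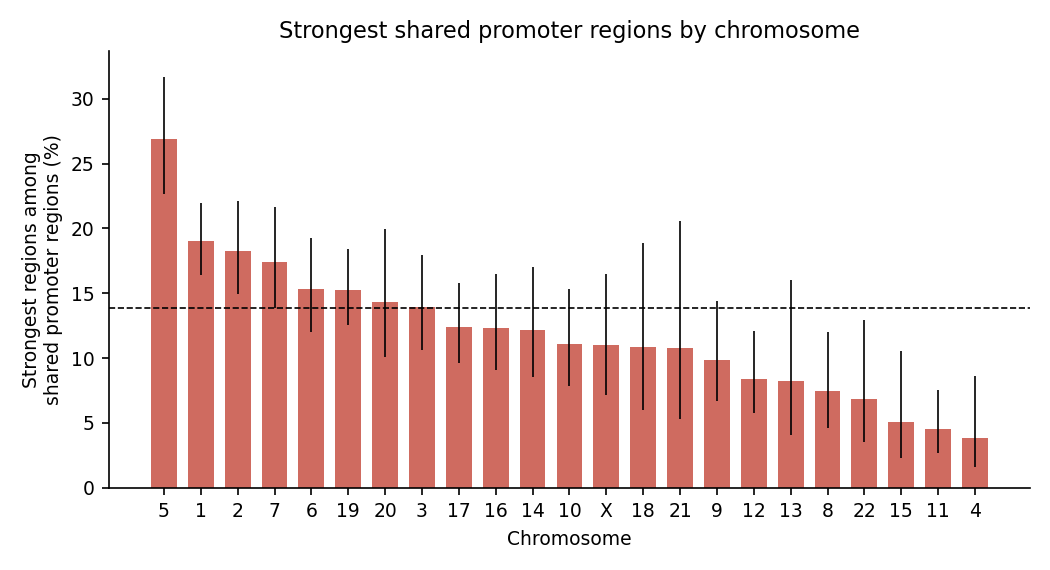
Share of the shared promoter regions of each chromosome that belong to the 896 strongest (bars, percent, starting at 0), with 95% Wilson intervals, ordered by share. The dashed line is the 13.9% of all chromosomes, and the intervals of chromosomes 5, 1 and 2 lie above it while those of chromosomes 12, 8, 22, 15, 11 and 4 lie below.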

How the data were processed

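Per the paper's methods and the labels, the authors aligned H3K27ac ChIP-sequencing reads and called peaks with the ENCODE pipeline, keeping the peaks reproducible between both samples of a line (IDR). The submitters' processing notes name hg38, BWA 0.7.12, SAMtools and Picard 1.88. The peak caller is not given in the sources used here. The deposited signal is a positive value per peak, with an unknown scaling from list to list, and was therefore ranked within a list. No counts were used, so the depth is unknown.

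Peaks were merged and regions chosen as described in the report with Python 3.11.15, numpy 2.4.6, pandas 2.3.3 and scipy 1.17.1. The members, gene families and motifs were chosen with earlier results of these data known. A region was named by the protein-coding gene whose start was nearest the mean of both strongest summits. Genes, starts and promoters came from RefSeq (GRCh38.p14), where 15842 of 20056 protein-coding genes, and 87.3% of the genes at the strong regions, had a start. Named regions were the 10 with the highest lower rank, the 4 highest and 4 lowest ratios, the 5 widest, 3 on each side of the threshold, up to 3 per gene family, the study's genes and the 5 closest divergent pairs. *HSPD1*, *HSPE1*, *H3C1*, *H4C1*, *ZNF747*, *SEC23B* and the genes added to them were named after their values were seen. The code was tested on simulated data. Some genes and 1 gene family that the naming rule covers are not reported here. Sequences were planned for the first 6 of the 10 regions, and 5 of the 10 were passed over because their upstream bases overlap an annotated gene.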

Additional observations from a re-analysis of the deposited data

How the results depend on the processing

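Of 108 values (9 results under 12 alternatives, 1 of them chosen after the data were seen), 91 stayed close to the reported value and 17 did not, where close means inside the 95% interval of a share or median and within 1.5 times for a count of regions or genes. A threshold of 90 left 576 regions at 732 genes, with a summit shift of 33 bp, and 95 left 257 regions at 328 genes, with a width of 855 bp, a summit shift of 29 bp, a GC content of 62.0% and a CpG ratio of 0.836. The median width was 1064 bp when gaps of up to 500 bp were bridged, 823 bp with the top 75% of peaks and 1134 bp when signal was summed over a region. Summed signal also gave a shift of 53 bp and 15.5% of regions past 1.5-fold, and only 465 of the 896 regions (51.9%) were chosen under it. Ranks over shared regions alone gave a shift of 33 bp. The share at 2 or more genes was 23.7% with windows of 1 kb outside and 16.6% with annotated starts. The cause of these moves was not tested. No paired analysis was possible because the samples of a line had been pooled before deposit, and no sample could be left out. Near-identical gene copies, unknown depth, the pooled lists and the missing common scaling limit the values, and line and culture cannot be told apart.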

Other observations

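The start of an annotated lncRNA gene lay inside 124 of the 896 strongest shared promoter regions (13.8% [11.7 to 16.3]) and inside 578 of the 5570 others (10.4% [9.60 to 11.2]). A miRNA hairpin overlapped 7 of the 896 regions (0.781% [0.379 to 1.60]) and 30 of the others (0.539% [0.378 to 0.768]). The 7 were those of *BCAR3* (*MIR760*), *SH3BP5L* (*MIR3124*), *TMEM258* (*MIR611*), *JUND* (*MIR3188*), *ATF2* (*MIR933*), *TIGD1* (*MIR5001*) and *RING1* (*MIR219A1*). The H3K27ac signal there cannot be divided between the miRNA and its neighbor. Genes that host a snoRNA were 3.88% [2.90 to 5.16] of the 1135 genes at the strongest regions, 3.81% of the other genes at shared promoter regions and 2.62% of all protein-coding genes.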
